A study of Mus musculus with 2 samples.

Results

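The variable segments of the T cell receptor, the Trav genes of the alpha chain and the Trbv genes of the beta chain, were followed in CD4 T cells of the mouse colon. All genes of the count table whose symbol begins with Trav or Trbv were taken, which gave 91 of 11971 genes: 68 Trav and 23 Trbv segments. The recipients were Rag-/- mice, which lack T and B cells unless given them, in a transfer model of colitis. KO-labelled mice had received BCL-6-deficient CD4+ T cells. WT-labelled mice had received wild-type T cells, described as naive, or as CD4+ cells that are CD45RBhigh and CD25-. There were 6 KO-labelled and 6 WT-labelled mice. Their ages, the strain, the donors behind each recipient and the way BCL-6 was removed are not given in the sources used here. Cells positive for TCRb and CD4 were sorted, tagged by mouse and pooled, so that all 12 mice shared 1 gene expression library.

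A T cell builds its receptor by joining 1 V segment to a J segment (and a D segment in the beta chain). Bases are trimmed and added at the joins, so that the resulting CDR3, the loop that touches the antigen peptide, differs from clone to clone. All descendants of a cell keep its V segments. A V segment can therefore be common because many separate clones use it, or because 1 clone has grown large. In transferred T cells that expand in the colon of an empty host, clone growth can be marked, and both counts are given here. Usage is the share of a segment among all Trav or all Trbv UMIs of a mouse, either over UMIs or with each clonotype given a weight of 1. A UMI is 1 counted RNA molecule, and a clonotype is the authors' deposited clone label. Where a clonotype had UMIs of several segments, its weight was split by them.

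The table held 29314 Trav UMIs in 11997 cells and 73287 Trbv UMIs in 15893 cells, of 18860 cells in all. Segments ranged from 27 UMIs for Trbv22, an annotated pseudogene, to 12644 for Trbv3. Mice held 1409 to 1736 cells and 4252124 to 5523025 UMIs. The median UMIs per cell ran from 2381 to 2997 in KO-labelled mice and from 2864 to 3102.5 in WT-labelled mice. A clonotype was given for 16175 cells, which made 6387 pairs of mouse and clonotype. Of these pairs 4067 held 1 cell, while 616 held 5 or more cells and together had 48.3% of all cells with a clonotype. Bcl6 averaged 81.1 ± 11.3 CPM, the UMIs of a gene scaled to 1000000 UMIs per mouse, in KO-labelled mice and 56.4 ± 7.93 CPM in WT-labelled mice (SD, n = 6 each). It was higher and not lower, so the mice are called by their labels, and the reads of this 5′ library do not check a deletion elsewhere in the gene. Of the alpha-beta T cell markers 8 of 8 were in the table, at 4208 to 5118 CPM in sum in KO-labelled mice and 4016 to 4600 CPM in WT-labelled mice. The CD8 genes, whose part in the results was not tested, summed to 4.06 to 10.0 CPM in KO-labelled mice and 11.3 to 56.2 CPM in WT-labelled mice. The gamma-delta T list, with 6 of 10 markers in the table, summed to 112.4 to 215 CPM in KO-labelled mice and 168 to 262 CPM in WT-labelled mice. Its defining gene Trdc averaged 0.957 ± 0.733 CPM in KO-labelled mice and 1.42 ± 2.48 CPM in WT-labelled mice. The B and plasma, myeloid and epithelial lists stayed at or under 26.7, 9.81 and 10.9 CPM in KO-labelled mice and 38.9, 13.5 and 22.7 CPM in WT-labelled mice.

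The beta chains of the largest clonotype with 1 called Trbv segment in each mouse show what a segment count is made of. Each line gives the deposited CDR3 nucleotide sequence of such a clonotype. Lower case marks the ends found in the called V segment and in a J segment of GENCODE vM21 (GRCm38), and capitals mark the bases between them, which set the clone apart.
KO-labelled mouse 1, Trbv19: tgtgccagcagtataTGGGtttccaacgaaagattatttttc
KO-labelled mouse 2, Trbv13-2: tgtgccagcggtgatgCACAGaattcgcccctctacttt
KO-labelled mouse 3, Trbv1: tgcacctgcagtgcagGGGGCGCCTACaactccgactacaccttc
KO-labelled mouse 4, Trbv5: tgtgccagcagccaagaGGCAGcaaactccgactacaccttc
KO-labelled mouse 5, Trbv13-3: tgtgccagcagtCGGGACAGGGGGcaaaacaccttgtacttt
KO-labelled mouse 6, Trbv2: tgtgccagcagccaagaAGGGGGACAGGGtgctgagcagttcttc
WT-labelled mouse 1, Trbv3: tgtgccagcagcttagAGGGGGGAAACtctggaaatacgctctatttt
WT-labelled mouse 2, Trbv15: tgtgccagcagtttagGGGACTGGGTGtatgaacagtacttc
WT-labelled mouse 3, Trbv31: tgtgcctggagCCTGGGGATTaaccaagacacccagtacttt
WT-labelled mouse 4, Trbv19: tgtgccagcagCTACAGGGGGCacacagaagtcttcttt
WT-labelled mouse 5, Trbv19: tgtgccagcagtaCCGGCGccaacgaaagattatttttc
WT-labelled mouse 6, Trbv13-1: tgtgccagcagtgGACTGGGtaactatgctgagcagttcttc
In 10 of the 12 no other Trbv segment matched a longer start of the sequence than the called one. The 12 clonotypes used 10 different Trbv segments, and Trbv19 was shared by 3 of them with 3 different junctions. They held 39, 30, 74, 98, 121 and 140 cells in KO-labelled mice 1 to 6, against 235, 45, 77, 57, 139 and 29 cells in WT-labelled mice 1 to 6. The largest, a Trbv3 clonotype of WT-labelled mouse 1, was 15.6% of that mouse's cells with a clonotype, and the Trbv2 clonotype of KO-labelled mouse 6 was 10.1%. The deposited clonotypes can divide 1 beta chain. In KO-labelled mouse 4 the Trbv5 chain shown was in 215 cells of 4 clonotypes, and in KO-labelled mouse 6 the Trbv2 chain was in 242 cells of 4 clonotypes. Of 4637 pairs of mouse and beta chain, 1025 lay in at least 2 clonotypes, so usage was also counted with each chain sequence once per mouse.

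Counted by clonotypes, the 4 most used Trbv segments were the same in both genotypes, in the same order. Trbv3 averaged 12.8% ± 1.64 in KO-labelled mice and 13.6% ± 0.818 in WT-labelled mice (SD, n = 6 each, as in all such pairs below). Trbv13-2 stood at 12.04% ± 1.37 and 12.9% ± 1.53 in KO-labelled and WT-labelled mice, and Trbv19 at 8.99% ± 1.72 and 9.21% ± 1.56. Trbv31, the segment that lies downstream of the constant genes in inverted orientation, averaged 8.58% ± 1.15 in KO-labelled mice and 7.19% ± 1.50 in WT-labelled mice. Trbv2 averaged 5.59% ± 0.725 in KO-labelled mice and 5.92% ± 1.85 in WT-labelled mice. These 5 segments had the highest mean share over the 12 mice together, although in KO-labelled mice alone Trbv13-1 at 6.11% and Trbv1 at 6.08% lay above Trbv2. For the 5 segments the unadjusted two-sided exact permutation p over the 12 mice ran from 0.108 for Trbv31 to 0.818 for Trbv19. Over all 23 Trbv segments the largest gap between the genotype means was 1.39 percentage points, at Trbv31, and 0 segments had an unadjusted exact p under 0.05. Pearson's r of the 2 mean profiles was 0.985 across the 23 segments, which are not independent replicates.

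**Figure D1:**
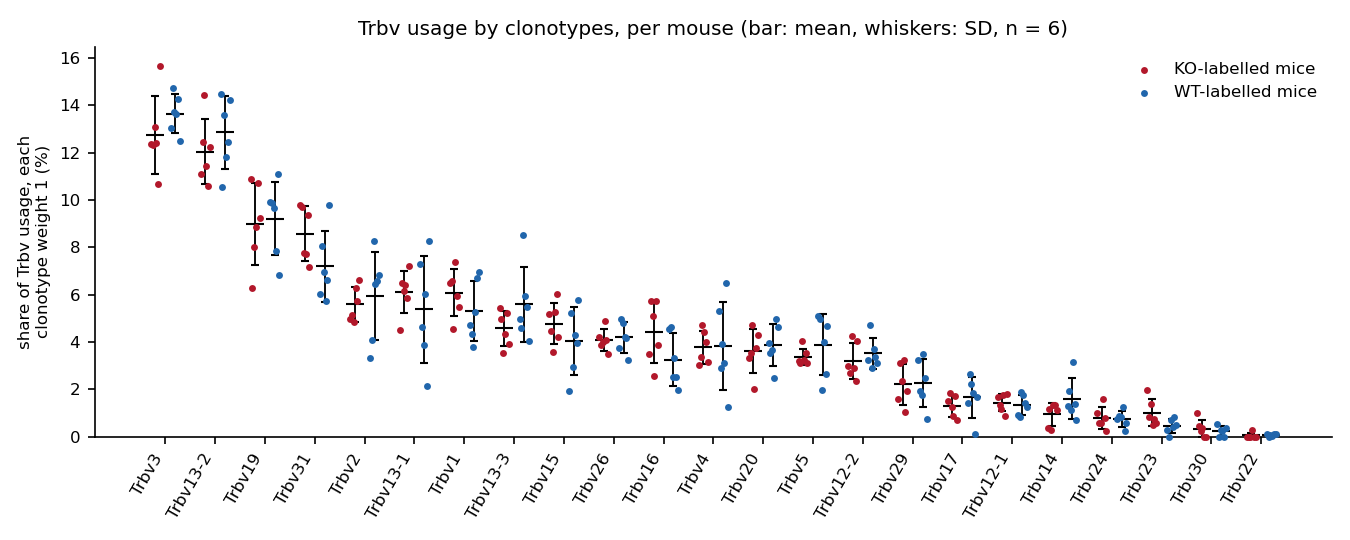
Share of Trbv usage (%) for each of the 23 Trbv segments with each clonotype given a weight of 1, in 6 KO-labelled (left of each pair) and 6 WT-labelled mice (right); points are mice, bars the mean and whiskers the SD, cut at 0. Trbv3 and Trbv13-2 lead in both genotypes, at 12.8% and 12.04% in KO-labelled mice and 13.6% and 12.9% in WT-labelled mice.

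Counted by UMIs, the profiles of the mice lay further apart. The summed absolute difference between the Trbv profiles of 2 mice, divided by 2, had a median of 22.5 percentage points between KO-labelled mice, 27.6 between WT-labelled mice and 24.4 between mice of unlike label. With each clonotype counted once these medians fell to 10.4, 14.5 and 12.9 percentage points. The median between labels lay between the medians within each label under both weights. At several extreme values 1 chain gave much of the UMIs. Trbv2 made up 13.2% of Trbv UMIs in KO-labelled mouse 6 and 1.91% to 3.20% in the other KO-labelled mice, against 0.802% to 3.28% in WT-labelled mice. In that mouse 75.1% of the Trbv2 UMIs came from cells with the Trbv2 chain printed above. Trbv30 held 5.41% of Trbv UMIs in WT-labelled mouse 1, 93.2% of them from 1 chain, and no more than 0.474% in any KO-labelled mouse or 0.141% in the other WT-labelled mice. Trbv19 reached 22.2% in WT-labelled mouse 5, with 53.6% of those UMIs from its printed chain. By clonotypes Trbv19 was 11.1% there, beside 6.28% to 10.9% in KO-labelled mice.

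Over all cells 63 of the 91 segments passed the filter on low counts, and 5 of them were called at an adjusted p under 0.05 in the edgeR fit over all 9861 genes tested, where 14.2% of genes were called. Of the 5, 4 fell and 1 rose in KO-labelled mice. At an unadjusted p under 0.05 there were 16 of the 63 segments, beside 2762 of the 9861 genes. The median log2 fold change of the 63 segments was -0.17, against -0.00 over all genes.

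Trbv14 fell by 1.96 on the log2 scale (SE 0.52, adjusted p = 0.0189 from edgeR). It stood at 3.85, 6.58, 7.66, 14.8, 11.3 and 4.53 CPM across KO-labelled mice 1 to 6, against 8.09, 71.2, 14.04, 51.9, 29.3 and 8.88 CPM in WT-labelled mice 1 to 6. WT-labelled mice 2 and 4 were the highest, and the lowest WT-labelled mice lay among the KO-labelled ones. Of the Trbv14 UMIs of WT-labelled mouse 2, 70.03% came from 1 chain. Its call held without each mouse in turn. By clonotypes it was 0.938% ± 0.479 in KO-labelled mice and 1.60% ± 0.867 in WT-labelled mice (unadjusted exact permutation p = 0.117).

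Trbv20 fell by 0.89 (SE 0.28, adjusted p = 0.0445 from edgeR). Its levels were 29.7, 23.8, 31.8, 13.0, 27.1 and 23.9 CPM across KO-labelled mice 1 to 6, against 29.5, 27.9, 37.5, 42.5, 97.9 and 35.5 CPM in WT-labelled mice 1 to 6. WT-labelled mouse 5 stood far above the rest, and 43.4% of its Trbv20 UMIs came from 1 chain. Without that mouse the fall was 0.51 with an adjusted p of 0.0598, and the call was also lost without KO-labelled mouse 1, 2, 4, 5 or 6 and WT-labelled mouse 3 or 4. By clonotypes Trbv20 was 3.602% ± 0.935 in KO-labelled mice and 3.88% ± 0.891 in WT-labelled mice.

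**Figure D2:**
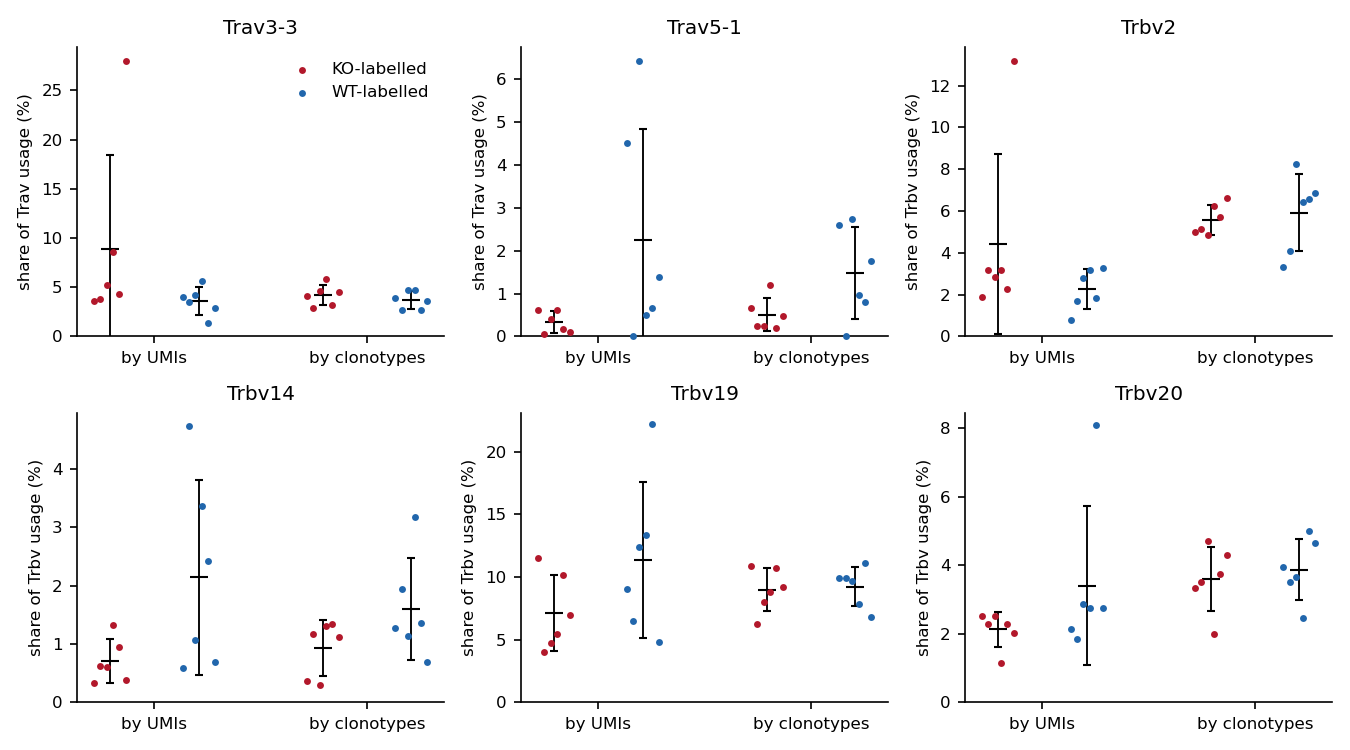
Share of Trav or Trbv usage (%) of 6 segments counted by UMIs and with each clonotype once, in KO-labelled (left of each pair) and WT-labelled mice (right); points are mice, bars the mean and whiskers the SD, cut at 0. The single high points by UMIs, such as 28.0% for Trav3-3 in KO-labelled mouse 6 and 22.2% for Trbv19 in WT-labelled mouse 5, move to 4.53% and 11.1% by clonotypes.

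The alpha chain locus holds many more segments, several in near-identical copies, whose symbols carry a d or n. Of the 68 Trav segments 28 had another annotated Trav segment at least 98% identical, and 56 had one at least 95% identical. Of the 23 Trbv segments 0 reached 95%, and the closest pair stood at 90.6%. Trav3-3, the Trav segment with most UMIs, differs from Trav3n-3 at 4 of 276 aligned bases. The stretch below, from the GENCODE vM21 transcripts (GRCm38, chromosome 14), holds 2 of them in 120 bases, in capitals.
Trav3-3: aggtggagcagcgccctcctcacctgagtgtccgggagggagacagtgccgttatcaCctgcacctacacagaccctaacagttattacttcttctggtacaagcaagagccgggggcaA
Trav3n-3: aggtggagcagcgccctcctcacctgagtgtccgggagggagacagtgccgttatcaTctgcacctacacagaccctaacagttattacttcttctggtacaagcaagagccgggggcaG
A short read between such bases belongs to both, and how the authors treated such reads is not stated in any source used here. A Trav value is therefore less certain for its own symbol than a Trbv value.

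By clonotypes the highest mean of any Trav segment was 4.27% in KO-labelled mice and 4.41% in WT-labelled mice. The 5 with the highest mean share over the 12 mice together were Trav9-1 at 4.07% ± 0.727 in KO-labelled mice and 4.41% ± 1.996 in WT-labelled mice, Trav6-7-dv9 at 3.96% ± 1.202 and 3.98% ± 1.26, Trav3-3 at 4.19% ± 1.05 and 3.72% ± 0.897, Trav14n-3 at 3.75% ± 0.937 and 3.94% ± 1.54, and Trav4-4-dv10 at 4.27% ± 0.553 and 3.35% ± 0.998. In WT-labelled mice alone Trav7-4, at 4.07%, lay above Trav3-3. The unadjusted exact permutation p of the 5 ran from 0.0714 for Trav4-4-dv10 to 0.972 for Trav6-7-dv9. The largest gap between the genotype means was 1.79 percentage points, at Trav14-3, which held 3.63% ± 0.866 in KO-labelled mice and 1.84% ± 0.889 in WT-labelled mice (unadjusted exact permutation p = 0.00866, the segment chosen after its values were seen). By UMIs it was 4.49% ± 4.88 in KO-labelled mice and 1.98% ± 1.91 in WT-labelled mice, and Trav14n-3 is 98.2% identical to it. By UMIs Trav3-3 held 3.61%, 3.76%, 5.22%, 8.60%, 4.35% and 28.0% in KO-labelled mice 1 to 6, against 4.002%, 3.46%, 4.21%, 5.67%, 1.32% and 2.91% in WT-labelled mice 1 to 6. KO-labelled mouse 6 was the outlying value, and its large Trbv2 clonotype carried Trav3-3 as alpha chain. In that mouse 1 chain gave 41.0% of the Trav3-3 UMIs. By clonotypes that mouse had 4.53%.

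Among Trav segments 3 were called over all cells. Trav5-1 fell by 2.83 (SE 0.83, adjusted p = 0.0306 from edgeR) and stood at 0.235 to 3.42 CPM in KO-labelled mice, against 20.3, 0, 33.9, 2.71, 3.37 and 7.27 CPM in WT-labelled mice 1 to 6. Of the Trav5-1 UMIs 1 chain gave 87.0% in WT-labelled mouse 1 and 65.7% in WT-labelled mouse 3, the highest of that label, and WT-labelled mouse 2 had none. The adjusted p was 0.0512 to 0.0925 without KO-labelled mouse 2, 3 or 5 or WT-labelled mouse 1 or 3, and 0.0981 without clonotypes of 5 or more cells. Trav8d-1 fell by 1.69 (SE 0.45, adjusted p = 0.0180 from edgeR), at 1.78 ± 0.812 CPM in KO-labelled mice and 5.60 ± 3.56 CPM in WT-labelled mice. It rests on 50 UMIs across KO-labelled and 169 across WT-labelled animals, and Trav8-1 is 96.3% identical to it. Of its UMIs 1 chain gave 66.1%, 71.0% and 78.1% in WT-labelled mice 1, 3 and 4. By clonotypes it held 0.674% ± 0.366 in KO-labelled mice and 0.905% ± 0.476 in WT-labelled mice, and among cells with a clonotype the adjusted p was 0.0567.

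Trav13-4-dv7, whose symbol marks a segment of both the alpha and the delta locus, rose by 1.50 (SE 0.42, adjusted p = 0.0233 from edgeR). It stood at 3.21, 3.29, 11.3, 20.5, 5.33 and 7.42 CPM across KO-labelled mice 1 to 6, against 1.81 to 3.75 CPM in WT-labelled mice. In KO-labelled mouse 4, the highest, 1 chain gave 64.4% of the UMIs. The rise was 0.84 with an adjusted p of 0.120 when clonotypes of 5 or more cells were left out, and 1.39 with an adjusted p of 0.0546 without WT-labelled mouse 3. By clonotypes it held 1.72% ± 0.483 in KO-labelled mice and 1.03% ± 0.715 in WT-labelled mice (unadjusted exact permutation p = 0.0866).

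Trav1, the segment that mucosal-associated invariant T (MAIT) cells join to Traj33, was given whatever its values. It held 0.295%, 0%, 0.123%, 0%, 0.238% and 0.243% of Trav usage by clonotypes in KO-labelled mice 1 to 6, against 0.446%, 0.650%, 0.543%, 1.09%, 0.473% and 1.48% in WT-labelled mice 1 to 6. The groups did not overlap, and the unadjusted exact permutation p was 0.00216, the smallest that 12 mice can give. It is 1 of 68 Trav segments without overlap by clonotypes, and 5 of the 68 had an unadjusted exact p under 0.05. The counts are small, with 15 UMIs in 10 cells of KO-labelled mice and 85 UMIs in 45 cells of WT-labelled mice, and Trav1 did not pass the filter of the edgeR fits. An alpha chain was called to the segment with over 50% of the Trav UMIs of its cells in a mouse, with at least 3 UMIs. By that rule 4 chains in 9 cells were called to Trav1. Among cells with a called alpha chain, 74.5% of Trav1 UMIs lay in cells called to another segment. The Trav1 share by clonotypes is therefore not a count of clones that use Trav1. With each alpha chain sequence counted once per mouse the groups again did not overlap, at 0.182% in KO-labelled mice and 0.832% in WT-labelled mice on average, and 8 of the 68 segments had an unadjusted exact p under 0.05. By cells and by UMIs the groups overlapped. By cells KO-labelled mouse 1 had 0.309%, against 0.160% in WT-labelled mouse 5, and by UMIs KO-labelled mouse 5 had 0.207%, against 0.152% in WT-labelled mouse 3. No alpha chain had a Trav1 start of at least 12 bases joined to a Traj33 end, in 0 cells of either label. The Trav11 and Trav11d segments of invariant NKT cells were not analysed here.

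Trav shares were also summed by position along the locus, and segments far from Trac held less of the usage in KO-labelled than in WT-labelled mice. The Trav segments of the table lie 344 to 1792 kb upstream of Trac on chromosome 14, and their J segments lie between. In developing T cells early Trav rearrangements are known to use the V segments nearest to the J segments, and later ones reach further out. Segments over 1000 kb from Trac, 25 of the 68, held 11.7%, 14.9%, 16.6%, 13.3%, 13.4% and 10.2% of Trav usage by clonotypes in KO-labelled mice 1 to 6, against 19.97%, 15.96%, 17.02%, 19.3%, 18.1% and 16.9% in WT-labelled mice 1 to 6. KO-labelled mouse 3 lay above WT-labelled mouse 2, and the other KO-labelled mice lay below all WT-labelled ones. The 10 segments within 500 kb held 13.7% ± 1.37 in KO-labelled mice and 10.6% ± 2.30 in WT-labelled mice. Among them Trav14-3 alone held 3.63% in KO-labelled mice and 1.84% in WT-labelled mice, while those nearest to Trac went the other way. Trav21-dv12 held 2.27% in KO-labelled mice and 2.69% in WT-labelled mice, Trav20 0.193% and 0.251%, and Trav19 1.47% and 1.52%. The 33 segments between held 72.9% ± 2.39 and 71.5% ± 2.35 in KO-labelled and WT-labelled mice. The mean distance of the segments used was 716 ± 15.3 kb in KO-labelled mice and 766 ± 20.01 kb in WT-labelled mice. Segments over 1000 kb from Trac can have near-identical copies closer to it. Trav7d-4 is 99.6% identical to Trav7-4, and Trav14d-3-dv8 is 96.9% identical to Trav14-3. The share of a far segment's UMIs in cells called to another segment ran from 0% for Trav13d-4 to 88.2% for Trav16d-dv11. Distance and the assignment of reads between copies cannot be told apart in these sums. The distances at 500 and 1000 kb were chosen with segment values known, and no test is given for these sums.

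The subsets were unequal between the labels, with 5461 general CD4 cells of 9708 in KO-labelled mice and 1463 of 9152 in WT-labelled mice, and the same share was taken within each subset. The share of segments over 1000 kb from Trac was 13.97% ± 1.61 in KO-labelled mice and 17.2% ± 2.09 in WT-labelled mice among recirculating cells. Among Th17 cells it was 10.6% ± 3.59 and 16.5% ± 2.15, among cytotoxic cells 10.1% ± 4.79 and 18.3% ± 6.50, among general CD4 cells 12.6% ± 3.74 and 18.3% ± 5.11, and among cycling cells 10.5% ± 2.47 and 18.5% ± 7.18, in KO-labelled and WT-labelled mice. The KO mean was the lower one in each of these 5 subsets, which share clones and mice. The mean share of segments within 500 kb was not higher in KO-labelled mice in every subset. Among Th17 cells it was 21.1% ± 6.65 in KO-labelled mice and 9.95% ± 3.44 in WT-labelled mice. Among cytotoxic cells it was 15.1% ± 5.43 and 11.2% ± 3.69, and among general CD4 cells 14.8% ± 2.35 and 11.4% ± 1.08. Among recirculating cells it was 11.6% ± 2.92 and 10.8% ± 2.52. Among cycling cells the KO mean was the lower one, at 10.8% ± 4.57 and 11.1% ± 7.34. With each alpha chain once per mouse, segments over 1000 kb from Trac held 14.1% ± 2.53 over all cells in KO-labelled mice. In WT-labelled mice they held 17.8% ± 1.12. Segments within 500 kb held 13.7% ± 0.836 and 9.94% ± 2.24 in KO-labelled and WT-labelled mice when counted so. Segments with a d or n in their symbol held 19.6% ± 1.48 by clonotypes in KO-labelled mice and 22.3% ± 2.93 in WT-labelled mice. With the donors not given, the genotype and the donors of the cells cannot be told apart.

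**Figure D3:**
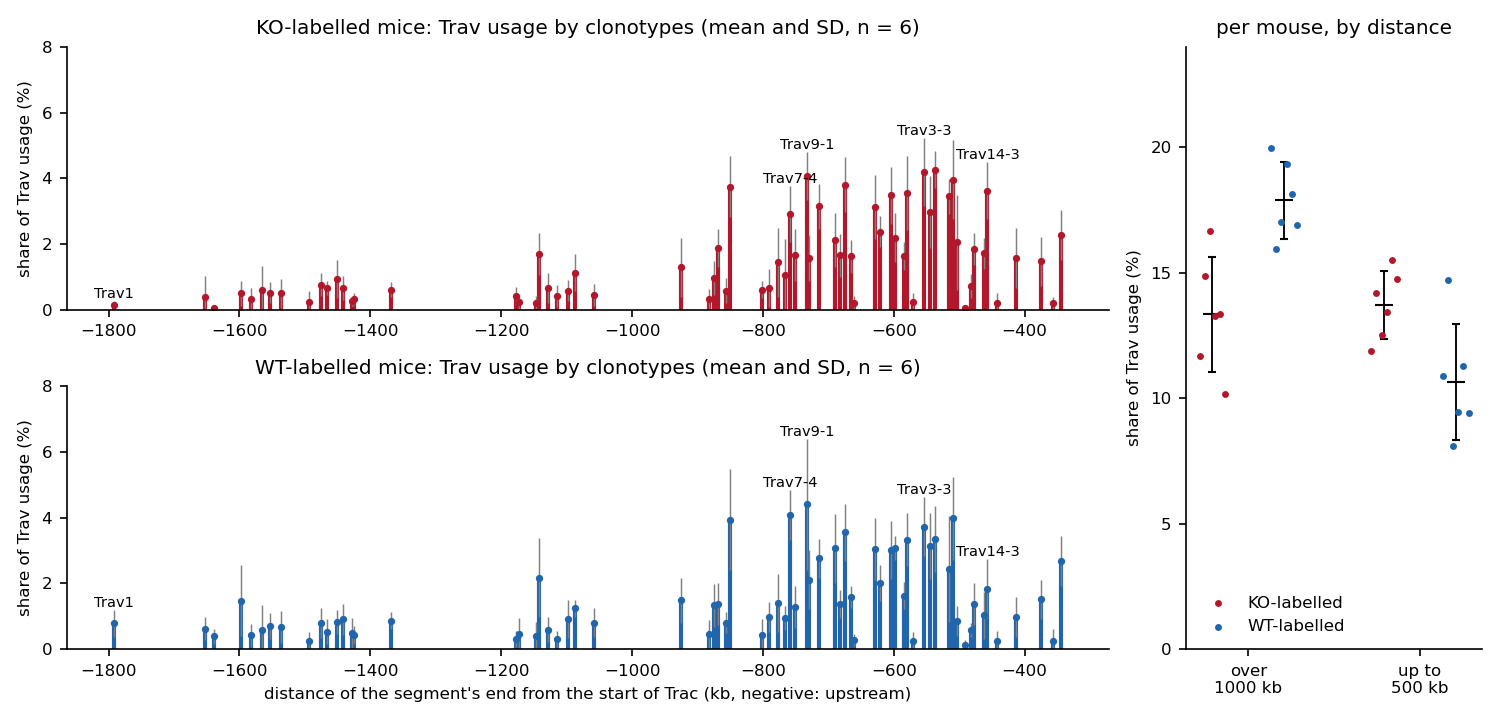
Left, mean share of Trav usage by clonotypes (%, whiskers SD, n = 6) of the 68 Trav segments against their distance from Trac (kb), in KO-labelled (top) and WT-labelled mice (bottom). Right, the summed share per mouse of segments over 1000 kb and up to 500 kb from Trac, with KO-labelled mice left of WT-labelled mice, at 13.3% and 17.9% on average for the far segments and 13.7% and 10.6% for the near ones.

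To take clone size out of the gene counts, 1 cell was drawn per clonotype and mouse, which left 6387 cells. In that edgeR fit 52 segments were tested and 6 were called, where 11.4% of all 8297 genes were called. All 6 fell. An unadjusted p under 0.05 was reached by 17 of the 52 segments, beside 1906 of the 8297 genes. The median log2 fold change of the 52 segments was -0.20, against 0.00 over all genes. Trbv14 fell by 1.45 (SE 0.43, adjusted p = 0.0294 from edgeR), at 10.2 ± 7.22 CPM in KO-labelled mice and 26.2 ± 18.7 CPM in WT-labelled mice. Trav5-1 fell by 1.59 (SE 0.51, adjusted p = 0.0447) and Trav7-5 by 0.86 (SE 0.26, adjusted p = 0.0343). Trbv12-2 fell by 0.52 (SE 0.16, adjusted p = 0.0354), Trbv26 by 0.41 (SE 0.13, adjusted p = 0.0489) and Trbv13-2 by 0.33 (SE 0.10, adjusted p = 0.0353). Each call depended on single mice, and 3 of them on the random draw. With another random draw the adjusted p was 0.0617 for Trbv12-2, 0.0678 for Trbv13-2 and 0.185 for Trbv26. With the deepest cell of each clonotype the edgeR adjusted p was 0.0774 for Trav5-1, 0.0606 for Trbv12-2, 0.139 for Trbv13-2 and 0.515 for Trbv26. The adjusted p reached 0.0698 to 0.106 for Trbv14 without KO-labelled mouse 1 or 3 or WT-labelled mouse 2 or 4. It reached 0.0616 to 0.119 for Trav5-1 without KO-labelled mouse 1, 2, 3, 5 or 6 or WT-labelled mouse 1, 3, 4, 5 or 6. It reached 0.0567 to 0.0969 for Trav7-5 without KO-labelled mouse 1, 3, 4 or 6 or WT-labelled mouse 1, 3 or 6. It reached 0.0514 to 0.105 for Trbv12-2 without KO-labelled mouse 1, 2, 3, 4 or 5 or WT-labelled mouse 2 or 4. It reached 0.0616 to 0.150 for Trbv26 without KO-labelled mouse 1, 2, 3, 5 or 6 or WT-labelled mouse 1, 2, 3 or 4. It reached 0.0592 to 0.109 for Trbv13-2 without KO-labelled mouse 1, 2 or 5 or WT-labelled mouse 1, 3 or 6.

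Trbv12-2 and Trbv13-2, called here, were also the segments most often found outside their own clones. A beta chain was given to the segment with over 50% of the Trbv UMIs of its cells in a mouse, with at least 3 UMIs, which called 3301 of 4561 chains. Cells with a called chain held a UMI of their own segment in 91.9% of cases, and 91.5% of their Trbv UMIs were of it. Trbv13-2 was also found in 9.96% of the 12055 cells whose chain used another segment, and Trbv12-2 in 6.78% of 13285 such cells. The next segments were Trbv24, an annotated pseudogene, at 1.91%, and Trbv19 at 1.45%. Trbv12-2 had a UMI in 1285 cells, while 91 cells had a chain called to it. Trbv5 stood apart in the other direction, with a UMI in 50.8% of its own cells at 0.828 UMIs per cell.

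The UMIs were split into those from cells with a chain called to the segment, its own clones, and those from all other cells. The other cells include those without a called beta chain. Trbv12-2 UMIs from its own clones stood at 7.38 ± 4.47 CPM in KO-labelled mice and 6.71 ± 3.94 CPM in WT-labelled mice (unadjusted exact permutation p = 0.768). From all other cells they came to 19.9, 26.8, 26.8, 22.4, 24.5 and 27.9 CPM across KO-labelled mice 1 to 6, against 30.5, 35.9, 30.1, 35.6, 30.3 and 26.6 CPM in WT-labelled mice 1 to 6 (unadjusted exact permutation p = 0.00866). WT-labelled mouse 6 lay among the KO-labelled mice, and the other WT-labelled mice lay above all of them. Trbv13-2 from other cells was 41.6 ± 11.9 CPM in KO-labelled mice and 52.8 ± 10.9 CPM in WT-labelled mice (p = 0.128, exact permutation), and from its own clones 84.8 ± 25.2 and 75.6 ± 21.9 CPM (p = 0.506). These quantities were chosen after the calls were seen, among 8 so compared. Trbv UMIs of any segment other than the cell's own came to 116 ± 15.5 CPM in KO-labelled mice and 131 ± 15.4 CPM in WT-labelled mice (unadjusted exact permutation p = 0.113). Not scaled to depth, they came to 0.344 ± 0.0309 UMIs per cell in KO-labelled mice and 0.444 ± 0.0570 in WT-labelled mice (unadjusted exact permutation p = 0.00216), with fewer UMIs per cell of all genes in most KO-labelled mice. Among cells whose called chain used another segment, the share with a Trbv12-2 UMI was 5.81% ± 1.24 in KO-labelled mice and 7.79% ± 1.29 in WT-labelled mice. After each cell was thinned to 1500 UMIs the shares were 3.31% ± 0.870 and 3.77% ± 0.569 (exact permutation p = 0.284). Cells under 1500 UMIs, which thinning left out, numbered 491 in KO-labelled and 407 in the WT-labelled group.

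**Figure D4:**
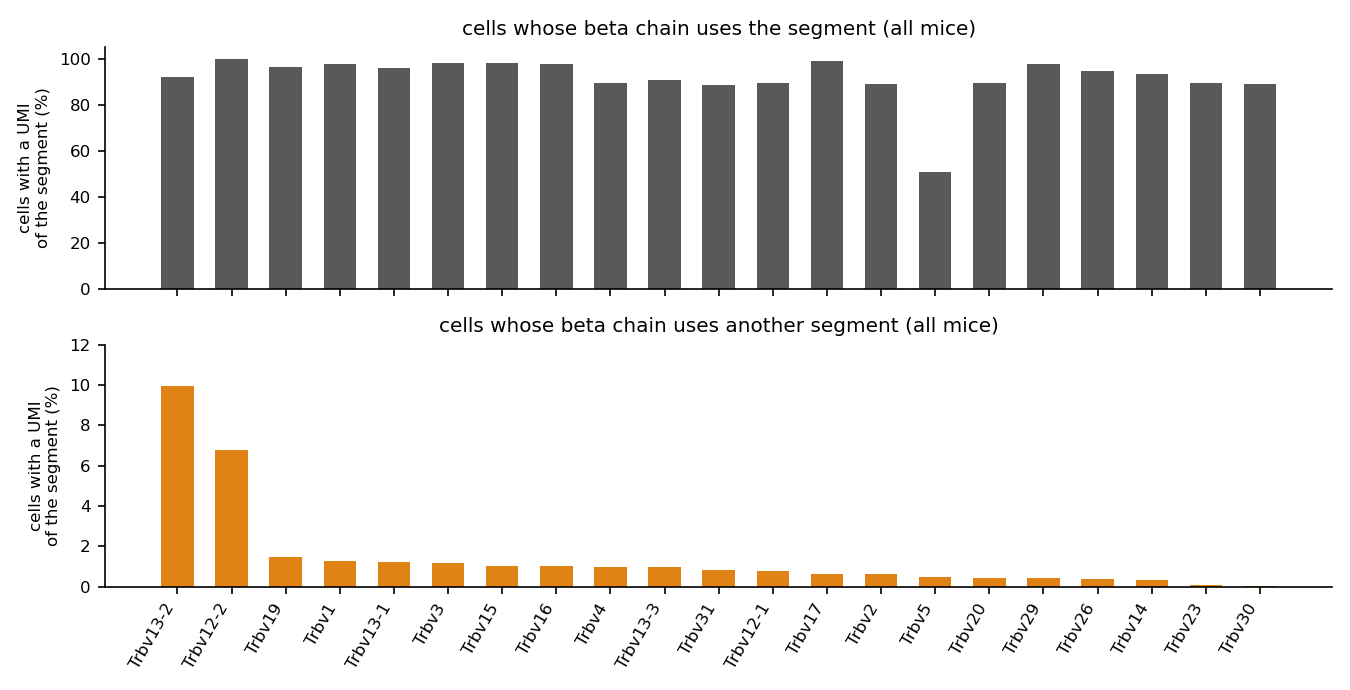
Cells with at least 1 UMI of a Trbv segment (%), among cells whose beta chain uses that segment (top) and among cells whose beta chain uses another (bottom, on its own scale), for the 21 segments with at least 20 own cells, all 12 mice together. Trbv13-2 and Trbv12-2 reach 9.96% and 6.78% in other clones, and Trbv5 reaches 50.8% in its own.

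Within the authors' cell subsets, 10 calls were made over all cells of a subset. Among recirculating cells 4 of 41 segments were called (5.48% of all genes tested), among cytotoxic cells 1 of 28 (2.89%), among Th17 cells 4 of 22 (5.09%) and among general CD4 cells 1 of 33 (6.4%). Cycling cells had 0 of 16 called (5.36%) with 6 at an unadjusted p under 0.05, beside 871 of 5376 genes. Regulatory cells, from 5 KO-labelled and 3 WT-labelled mice, had 0 of 4 called (0.513%). At an unadjusted p under 0.05 they had 2, beside 199 of 1754 genes. In Th17 cells Trbv2 rose by 2.28 (SE 0.46) and Trav3-3 by 2.34 (SE 0.57), the beta and alpha segments of the large clonotype of KO-labelled mouse 6, 43 of whose 140 cells were Th17 cells. Trbv2 stood there at 31.5, 54.9, 43.4, 26.9, 80.8 and 320 CPM across KO-labelled mice 1 to 6, against 8.50 to 39.5 CPM in WT-labelled mice. Trav3-3 stood at 3.50, 0, 47.0, 118, 20.2 and 354 CPM across KO-labelled mice 1 to 6, against 3.95 to 61.6 CPM in WT-labelled mice. KO-labelled mice 1 and 2 lay below all WT-labelled ones. Trbv19 fell by 1.22 and Trbv13-2 by 0.98 in Th17 cells, at 92.9 ± 51.9 and 72.4 ± 28.0 CPM in KO-labelled mice and 209 ± 107 and 134 ± 37.7 CPM in WT-labelled mice. In general CD4 cells Trbv14 fell by 2.73 (SE 0.45), at 1.63 to 12.03 CPM in KO-labelled mice and 47.3, 58.8, 16.4, 58.5, 27.8 and 0 CPM in WT-labelled mice 1 to 6. In cytotoxic cells Trbv1 rose by 1.44 (SE 0.36), at 347, 56.8, 198, 123, 113.0 and 65.8 CPM across KO-labelled mice 1 to 6, against 21.8, 41.7, 106.7, 61.3, 16.99 and 59.97 CPM in WT-labelled mice 1 to 6. In recirculating cells Trav3-3 rose by 1.52, while Trav12-3, Trav14-2 and Trbv12-2 fell by 1.66, 0.95 and 0.74. Trav3-3 stood there at 11.7, 69.1, 18.6, 41.5, 10.1 and 111 CPM across KO-labelled mice 1 to 6, against 7.28 to 37.7 CPM in WT-labelled mice. The large clonotype of KO-labelled mouse 6 had 56 of its 140 cells among recirculating cells. The adjusted p of the calls within subsets, from edgeR, ran from 0.00038 to 0.0340.

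With 1 cell per clonotype and subset, 2 calls were made. In cytotoxic cells Trbv1 rose by 1.01 (SE 0.24, adjusted p = 0.0116 from edgeR), the 1 call among 15 segments, where 3.07% of genes were called. It stood at 149.8, 13.4, 133, 129, 169 and 71.1 CPM across KO-labelled mice 1 to 6, against 66.4, 60.3, 30.0, 73.3, 49.3 and 56.5 CPM in WT-labelled mice 1 to 6. KO-labelled mouse 2 was the lowest of all 12 mice, while 4 KO-labelled mice exceeded every WT-labelled one. Trbv1 held 7.11% ± 3.005 of Trbv usage by clonotypes among cytotoxic cells of KO-labelled mice and 4.92% ± 0.766 of WT-labelled mice. In recirculating cells Trbv12-2 fell by 0.71 (SE 0.22, adjusted p = 0.0473), the 1 call among 26 segments (5.7% of genes). Th17, general CD4 and cycling cells had 0 of 12, 0 of 20 and 0 of 11 segments called, beside 5.79%, 5.92% and 6.08% of all genes. At an unadjusted p under 0.05 in edgeR they had 2, 4 and 3 segments, beside 594 of 3555, 923 of 5536 and 733 of 4343 genes. Whether the Trbv1 rise in cytotoxic cells differs from its change in other subsets was not tested.

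Among regulatory T cells, which restrain other T cells, Trbv12-2 was more frequent than among the rest. These clusters were made from the same cells, so the values are a description with no test. Of 150 regulatory clonotypes with a called beta segment, 19 used Trbv12-2, which is 12.7%, against 36 of 4282 clonotypes (0.841%) seen in the other 5 subsets. The 19 came from 10 of the 12 mice, with 12 of 94 clonotypes in KO-labelled and 7 of 56 in WT-labelled mice, and 0 of the 19 had cells in another subset, as against 29 of all 150 regulatory clonotypes. They held 18 different beta chain sequences. In 16 of the 19 the start of the deposited CDR3, which was not used to call the segment, matched Trbv12-2 as well as any Trbv segment. The called segment was likewise best or tied in 84.1% of all 3301 called beta chains. For Trbv12-2 in the other subsets it was so in 29 of 36 clonotypes. The clonotype with most regulatory cells in each of the 10 mice had the sequences below, with the bases between the V and J ends in capitals.
KO-labelled mouse 1: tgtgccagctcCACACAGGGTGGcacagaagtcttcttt
KO-labelled mouse 2: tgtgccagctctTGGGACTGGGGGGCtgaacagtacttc
KO-labelled mouse 4: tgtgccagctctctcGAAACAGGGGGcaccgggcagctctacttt
KO-labelled mouse 5: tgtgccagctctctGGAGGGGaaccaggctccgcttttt
KO-labelled mouse 6: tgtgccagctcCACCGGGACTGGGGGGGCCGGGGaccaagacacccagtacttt
WT-labelled mouse 1: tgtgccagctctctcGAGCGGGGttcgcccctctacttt
WT-labelled mouse 2: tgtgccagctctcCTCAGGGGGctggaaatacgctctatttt
WT-labelled mouse 3: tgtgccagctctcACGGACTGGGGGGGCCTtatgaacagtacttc
WT-labelled mouse 4: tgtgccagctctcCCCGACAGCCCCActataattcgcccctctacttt
WT-labelled mouse 6: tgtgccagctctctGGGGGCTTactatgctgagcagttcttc
All 10 sequences differ between their V and J ends. Trbv16 was in 16 of the 150 regulatory clonotypes (10.7%, against 4.41% elsewhere) and Trbv3 in 31 (20.7%, against 15.1%). Trbv12-1, the neighbour of Trbv12-2 by name, was in 7 (4.67%, against 0.911%), all 7 from 3 KO-labelled mice. Trbv13-2, Trbv1 and Trbv31 were in 5.33%, 2% and 4% of regulatory clonotypes, against 11.9%, 6.40% and 7.99% elsewhere.

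**Figure D5:**
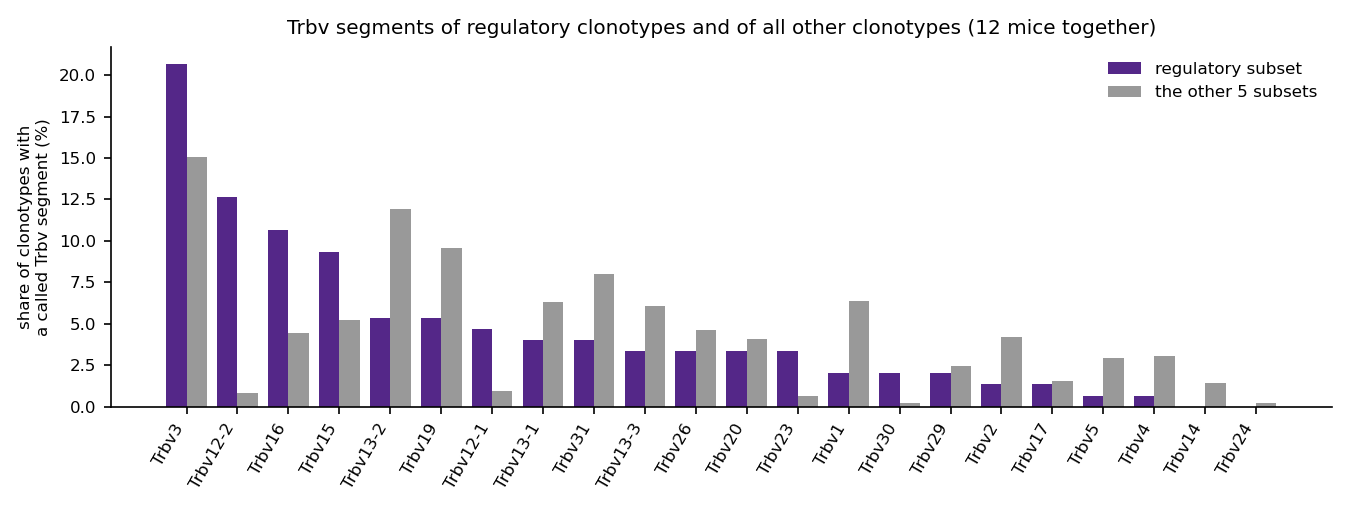
Share (%) of clonotypes with a called Trbv segment that use each segment, among 150 clonotypes with regulatory cells (left bar of each pair) and 4282 clonotypes of the other 5 subsets (right bar), for the segments used by any of them, 12 mice together and no error bars. Trbv12-2 stands at 12.7% and 0.841%.

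Summed over the chain, Trbv UMIs stood at 1178, 1043, 1265, 1120.2, 1190.5 and 1177 CPM across KO-labelled mice 1 to 6, against 1383, 1505, 1310, 1545, 1209 and 1286 CPM in WT-labelled mice 1 to 6. KO-labelled mouse 3 lay above WT-labelled mouse 5, and the other KO-labelled mice lay below all WT-labelled ones. The exact permutation p was 0.00433, with an adjusted p of 0.0606 over the 14 repertoire measures, which does not pass. Without WT-labelled mouse 5 it was 0.0303. Trav UMIs summed to 494 ± 49.1 CPM in KO-labelled mice and 523 ± 45.5 CPM in WT-labelled mice. By subset the Trbv sum was 1108 ± 167 CPM in KO-labelled and 1477 ± 193 CPM in WT-labelled mice among Th17 cells, and 1288 ± 111 and 1441 ± 85.3 CPM among recirculating cells. Among general CD4 cells it was 1160.0 ± 129.8 and 1238 ± 175 CPM, and among cytotoxic cells 1190.3 ± 251 and 1284 ± 139 CPM. Fewer cells with a chain and fewer transcripts per cell cannot be told apart in such sums. Among cells with a called beta chain, UMIs of the cell's own Trbv segment came to 3.80 ± 0.399 per cell in KO-labelled mice and 4.66 ± 0.476 in WT-labelled mice (unadjusted exact permutation p = 0.00649). Scaled to depth they were 1272 ± 116 CPM in KO-labelled mice and 1378 ± 152 CPM in WT-labelled mice (unadjusted exact permutation p = 0.212).

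Of the 7 chain genes of the fixed list, 2 fell and 1 rose over all cells, where 14.2% of all genes were called, and 1 fell and 0 rose with 1 cell per clonotype, where 11.4% were called. Trbc2, the beta constant gene, stood at 411, 396, 450.0, 608, 478 and 481 CPM across KO-labelled mice 1 to 6, against 634, 617, 645, 567, 594 and 512 CPM in WT-labelled mice 1 to 6. It fell by 0.38 (SE 0.09, adjusted p = 0.00926 from edgeR), and by 0.35 (adjusted p = 0.00134) with 1 cell per clonotype. Trbc1 fell by 0.43 (adjusted p = 0.0172) over all cells and was not called with 1 cell per clonotype (adjusted p = 0.141). Trac averaged 146 ± 19.7 CPM in KO-labelled mice and 163 ± 15.1 CPM in WT-labelled mice and was not called. Cd247, the zeta signalling chain, rose by 0.15 (adjusted p = 0.0423) over all cells and was not called with 1 cell per clonotype, at 0.07 (adjusted p = 0.594). In both fits Cd3d, Cd3e and Cd3g, the CD3 chains, were not called. Of 24 proximal signalling genes 5 rose and 3 fell over all cells, against 3 that rose and 4 that fell with 1 cell per clonotype. Trat1, a transmembrane adaptor that stabilises the receptor at the surface, fell by 1.12 (adjusted p = 8.65e-06). Cblb, a ubiquitin ligase that restrains receptor signals, rose by 0.67 (adjusted p = 7.28e-05), and Ptpn6, the SHP-1 phosphatase, by 0.41 (adjusted p = 0.00189). The recombination genes Rag1, Rag2 and Dntt were not analysed here.

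Of the 14 repertoire measures, 0 passed at an adjusted p under 0.05 by the exact permutation test over the mice, while 3 had an unadjusted p under 0.05. The effective number of Trav segments by clonotypes, the exponential of the Shannon entropy, was 43.7 ± 1.75 in KO-labelled mice and 46.0 ± 1.33 in WT-labelled mice (exact permutation p = 0.0346, adjusted p = 0.189). That of Trbv was 16.5 ± 0.531 and 16.1 ± 0.722. Clonotypes per 1000 cells came to 366 ± 40.9 in KO-labelled mice and 308 ± 47.5 in WT-labelled mice (exact permutation p = 0.0498, adjusted p = 0.189). The 10 largest clonotypes held 22.7% ± 7.28 of cells with a clonotype in KO-labelled mice and 26.0% ± 8.25 in WT-labelled mice. A Trbv UMI was found in 82.4% ± 2.98 of cells of KO-labelled mice and 86.3% ± 3.14 of WT-labelled mice, and in 70.5% ± 2.23 and 74.4% ± 2.52 after thinning to 1500 UMIs.

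Clones were nearly all private to a mouse, CDR3 sequences of alpha chains less so. Of 6367 clonotypes, 20 were found in 2 mice and 0 in more, 11 of them in mice of both labels, and 17 had 1 cell in one of the mice. Of the distinct deposited alpha chain sequences 191 (4.46%) were found in at least 2 mice, against 40 beta chain sequences (0.871%). The 7 alpha chains found in 4 mice, the most for any, are shown with the bases outside the V and J matches in capitals and the J segment named.
shared alpha 1, Traj33: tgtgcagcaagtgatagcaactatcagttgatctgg
shared alpha 2, Traj37: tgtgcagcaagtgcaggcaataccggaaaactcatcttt
shared alpha 3, Traj22: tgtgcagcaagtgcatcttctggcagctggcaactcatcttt
shared alpha 4, Traj31: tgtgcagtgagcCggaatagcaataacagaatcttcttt
shared alpha 5, Traj49: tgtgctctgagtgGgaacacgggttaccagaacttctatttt
shared alpha 6, Traj34: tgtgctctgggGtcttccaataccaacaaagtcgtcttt
shared alpha 7, Traj31: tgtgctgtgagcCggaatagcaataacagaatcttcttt
A shared CDR3 did not always come with 1 called V segment. Calls from UMIs gave Trav14-2 and Trav14n-3 for shared alpha 1, Trav14d-3-dv8 and Trav14n-3 for 3, and Trav7-3 and Trav7-5 for 4. They gave Trav10 and Trav12-3 for shared alpha 6, Trav3-3 and Trav9-4 for 7, and 1 segment each for 2 and 5. The germline segments left 0 or 1 base of each sequence unexplained. Over single alpha chains with 1 sequence, the median number of such bases was 1 in the 189 found in at least 2 mice and 2 in the 3876 found in 1 mouse, and 42.9% and 14.5% of them had 0. Beta chains had a median of 8 such bases in the 40 shared and 9 in the 4479 unshared sequences, D bases included. The best match over all segments was taken, so the medians are lower limits and the shares with 0 such bases are upper limits.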

How the data were processed

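Colonic TCRb+ CD4+ cells of 12 mice were profiled by 10x 5′ v2 single-cell sequencing, with a hashtag per mouse. The deposited values are raw UMI counts per gene and cell, with the authors' table of mouse, genotype, subset and clonotype per cell. Cell Ranger 3.1.0, Seurat 3.1.5 and the builds GRCm38 and mm10 are named, without roles, per the submitters' processing notes. Cell and doublet filters, strand use and reads matching several segments are not given in the sources used here, and no cells were removed here. Hashtag reads enter here as the mouse that the authors gave each cell.

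UMI counts were summed per mouse and tested with edgeR 4.0.16 (R 4.3.3; TMM, its filter on low counts, quasi-likelihood test, Benjamini-Hochberg adjustment over all genes tested), KO over WT, over all cells, over 1 cell drawn per clonotype and mouse, and within subsets of at least 20 cells per mouse. Adjusted p under 0.05 counts as called. CPM values are scaled to 1000000 UMIs of all genes per mouse. Single values per mouse were tested by two-sided exact permutation over 924 assignments (numpy 2.4.6), whose smallest p is 0.00216. Whether recipients had separate donors is not given, so p-values measure the spread between these mice. Chains are the deposited CDR3 sequences, and germline ends and positions were read from GENCODE vM21. On simulated counts with all cells, 90 of 100 2-fold and 100 of 100 4-fold changes were recovered with 5 false calls among 9861 genes, and with 1 cell per clonotype 80, 100 and 2 among 8297. Every simulated gene had the same spread between mice, which was not taken from the segments, so these recoveries do not apply to segments. Alternatives were DESeq2 1.42.0, other filters, families, clone weights and leaving out each mouse. Counting each chain once per mouse and thinning to 1500 UMIs were chosen after seeing the data. The text names segments called over all cells, with 1 cell per clonotype or within a subset, the 5 Trav and 5 Trbv segments with the highest mean share by clonotypes, and Trav1; Trbv30, Trbv24, Trbv13-1, Trbv5, Trav14-3, Trav7-4 and the regulatory segments were singled out after their values were seen. The members and lists were chosen with earlier results of these data known.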

Additional observations from a re-analysis of the deposited data

Results flagged for a closer look

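Among 68 groups of 6 mice tested by Dixon's gap ratio, 3 held a mouse far from the others, where chance flags about 1 in 20 groups. Trav6-7-dv9, with a share by clonotypes of 2.67% to 6.25% in KO-labelled mice, was highest at 6.25% in KO-labelled mouse 5, and the gap to the next mouse was 0.677 of the range. Trav9-1 reached 8.28% in WT-labelled mouse 3, with a gap of 0.673 of the range. Trav14n-3 reached 6.89% in WT-labelled mouse 5, with a gap of 0.646 of the range.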

How the results depend on the processing

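Over all cells the count of 5 called segments became 3 with segments summed to families and ran from 2, without WT-labelled mouse 3, to 8, without KO-labelled mouse 6. With 1 cell per clonotype the count of 6 became 10 with no filter on low counts, 3 with DESeq2 and 3 with another random draw, and ran from 1 to 7 with a mouse left out. The count of 10 within subsets became 2 with 1 cell per clonotype and 37 with no filter. The Trbv sum differed by -211 CPM between KO-labelled and WT-labelled mice, and by -244 to -176 CPM with a mouse left out, where it passed without WT-labelled mouse 5 (adjusted p = 0.0303, exact permutation over the mice). The 11 log2 fold changes of segments called over all cells or with 1 cell per clonotype kept their direction under the alternatives run. Those within subsets and those of the receptor list were not run under them. Trbv14 over all cells kept its call in 17 of 17 alternatives, while Trbv26 with 1 cell per clonotype lost it in 12 of 17, with an adjusted p of 0.515 when the deepest cell of each clonotype was taken. The cause of these changes was not tested. No paired analysis was possible because the labels pair no mice of the 2 genotypes. Depth limits Trav most, with 29314 UMIs over 68 segments, and 39 segments had too few counts to be tested with 1 cell per clonotype.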

Other observations

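Trbv24, an annotated pseudogene, was found in 7.40% of cells with another called chain in KO-labelled mouse 4, against 1.24% to 2.23% in the other KO-labelled mice and 0.631% to 2.46% in WT-labelled mice. Over all 12 mice 4403 cells held UMIs of at least 2 Trbv segments and 3114 cells UMIs of at least 2 Trav segments.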
